A study of Mus musculus with 6 samples.

Results

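Apoe and 8 genes that handle the lipoprotein particles it decorates were followed across the cell classes of the mouse fracture callus. The genes were taken by symbol from a list: Apoe, the lipoprotein receptor gene Lrp1, the lipoprotein lipase gene Lpl, the phagocyte receptor gene Trem2, the cholesterol exporter genes Abca1 and Abcg1, the oxysterol receptor gene Nr1h3, the lysosomal lipase gene Lipa and the sterol acyltransferase gene Soat1. All 9 were found among the 52081 gene identifiers that the 6 libraries shared. Single-cell libraries had been made from femoral calluses at 14 days post fracture (dpf), 3 from control mice and 3 from mice labelled knockout. The mice were males of 12 weeks, and tamoxifen was given to control and knockout mice alike, at 75 mg/kg daily for 5 days from day 5 after fracture. The control mice were Piezo1 f/f (labelled wt), and the knockout mice Piezo1 Col2a1, in which the tamoxifen-dependent Cre is active in cells that express Col2a1. Macrophages and vessels of the callus are not the cells this promoter targets. The labels of the knockout libraries write the deleted gene as Piezo3. The labels do not say that each library came from a mouse of its own, so p-values measure the spread between these libraries, which may be technical.

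Apolipoprotein E coats lipid-rich particles and lets cells take them up through receptors of the low-density lipoprotein receptor family, among them LRP1. In macrophages, which clear dead cells and their membranes, lysosomal acid lipase (Lipa) frees cholesterol from engulfed particles, ACAT1 (Soat1) re-esterifies it for storage in droplets, and ABCA1 and ABCG1 hand it to apolipoproteins and high-density particles outside the cell. The nuclear receptor LXR alpha (Nr1h3) senses oxysterols and induces Apoe, Abca1 and Abcg1, and TREM2 binds lipids and apolipoproteins on the surface of macrophages, osteoclasts and microglia. A callus at this stage holds cartilage that is being invaded by vessels, osteoclasts and macrophages. Release and clearance of lipid by its cells were not measured.

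After filtering, 41652 cells were kept of 46944 barcodes, and pairs of libraries shared 4 to 36 barcodes. Total UMIs (unique molecular identifiers, 1 per captured transcript) ran from 57626530 to 103784364 per library, and the median barcode held 2554 UMIs in control library 1, 2728.5 in knockout library 1 and 5691 to 9289.5 in the other libraries. Cells were placed in classes by marker genes, and levels are counts per 1000000 (CPM), that is, UMIs of a gene scaled to a sum of 1000000 UMIs over all genes of a class in 1 library. The cells were 4576 macrophage-like, 1590 osteoclast-like, 3904 chondrocyte-like, 751 hypertrophic-like (together called cartilage-like), 2200 osteoblast-like, 3753 fibroblast-like, 5918 endothelial-like and 1676 pericyte-like cells. Single libraries held 38 to 708 osteoclast-like, 31 to 1424 osteoblast-like and 41 to 663 pericyte-like cells. The defining markers bore these names out unevenly. All 9 osteoclast markers, all 9 endothelial markers and 7 of 10 macrophage markers were highest in the class they name, as were 11 of 13 chondrocyte markers, but only 3 of 7 monocyte markers, 3 of 5 marrow stromal markers and 10 of 16 fibroblast markers were. The marrow stromal-like cluster had 1 of its own markers among its 10 leading genes, and its counterpart at a finer clustering resolution stayed unnamed. A further 3287 cells with few UMIs, in which cartilage and immune markers stood together, were kept out of the cartilage-like class. Clusters left unnamed were also kept out of it. Among them were 1073 cells led by Col10a1, with chondrocyte-like as the best match. Another 550 cells were led by Chil1, with hypertrophic-like as the best match. The chondrocyte-like class itself kept a cluster of 681 cells with few UMIs (median 868), also led by Col10a1. Piezo1, the targeted gene, in cartilage-like cells was at 66.8, 42.5 and 54.2 CPM under the control label and at 131, 51.0 and 46.7 under the knockout label (libraries 1 to 3 of each). The groups thus overlapped, and the highest value was that of knockout library 1. Where the Piezo1 tags lie relative to the floxed exons was not examined, so these levels do not check the deletion. The paper checked the knockout by immunofluorescence staining, and it reports lower Piezo1 expression in 1 of its hypertrophic clusters.

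Apoe (ENSMUSG00000002985) lies on chromosome 7 from 19696109 to 19699188 on the minus strand of GRCm38, and Trem2 (ENSMUSG00000023992) on chromosome 17 from 48346401 to 48354147 on the plus strand. In GENCODE M21 neither overlaps another gene. Among the members these were the pair with the most similar pattern over classes and libraries (below), so the 250 bases before the start of each are shown, from RefSeq promoter windows on GRCm38.p6, each read 5' to 3' on the strand of its gene. The Apoe stretch is chr7:19699189-19699438, the outermost of 3 windows listed for the gene, and the Trem2 stretch is chr17:48346151-48346400. Capitals mark GAGGAA or its reverse complement, the core bound by the macrophage factor PU.1.
Apoe: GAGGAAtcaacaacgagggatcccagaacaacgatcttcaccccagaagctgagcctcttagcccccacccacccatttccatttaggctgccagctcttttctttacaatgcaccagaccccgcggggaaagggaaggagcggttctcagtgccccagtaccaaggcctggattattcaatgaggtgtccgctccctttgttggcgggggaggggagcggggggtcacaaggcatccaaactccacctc
Trem2: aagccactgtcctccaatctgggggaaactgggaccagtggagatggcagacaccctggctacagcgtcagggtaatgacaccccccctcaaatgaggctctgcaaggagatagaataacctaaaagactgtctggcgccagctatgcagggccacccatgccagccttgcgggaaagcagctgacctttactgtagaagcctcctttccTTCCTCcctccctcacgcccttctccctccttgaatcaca
Each stretch held 1 such match. GAGGAA was searched on both strands and occurs in 23.3% of the 32851 promoter stretches of this length, so a match is a description and not a site. Windows were found for 7 of the 9 genes (10 windows, with none for Lpl and Abcg1), and 3 genes held the match: Apoe, Trem2 and Lipa. The DR4 element, 2 direct repeats of a hexamer that LXR binds, was also searched in its exact consensus on both strands and was in none of the 10 windows and in 0.0152% of all.

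Apoe was a macrophage transcript first of all. Macrophage-like cells of control libraries 1 to 3 held 12251, 9558 and 11116 CPM of Apoe, and those of knockout libraries 1 to 3 held 9071, 7878 and 10328. Every one of these values was above every value of every other class. Monocyte-like cells came next with 1446 to 4234, and osteoclast-like cells followed with 412 to 1294. The step from macrophage-like to monocyte-like cells was 2.01 ± 0.61 (SD, log2, 6 libraries), and the step from monocyte-like to osteoclast-like cells 1.65 ± 1.04. Each of these steps had the same sign in 6 of 6 libraries. Below osteoclast-like cells the order could not be read: lymphocyte-like cells were at 219 to 371, neutrophil-like cells at 127 to 408 and endothelial-like cells at 228 to 345. Their ranges overlapped with those of tendon-like (164 to 862), fibroblast-like (105 to 298) and pericyte-like cells (98.2 to 368), and osteoblast-like cells were at 86.0 to 172 and cartilage-like cells at 69.9 to 173. In the weakly marked marrow stromal-like cells Apoe was at 738 and 684 in control libraries 2 and 3 against 110 to 288 in the other 4.

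Against cartilage-like cells of the same library, macrophage-like cells held 84.7 times as much Apoe (mean log2 ratio 6.40 ± 0.62 SD, higher in 6 of 6 libraries; two-sided exact sign-flip permutation test, p = 0.031, the smallest that 6 libraries allow, and 0.0352 adjusted over the 9 members). Trem2 gave 86.1 times (6.43 ± 0.58), Abcg1 27.9 times (4.80 ± 0.47), Lpl 24.0 times (4.58 ± 0.96) and Nr1h3 18.1 times (4.18 ± 0.26). Lipa at 15.5 times (3.96 ± 0.59), Abca1 at 14.3 times (3.84 ± 1.13) and Soat1 at 6.78 times (2.76 ± 0.20) were also higher in macrophage-like cells of all 6 libraries, with the same exact p. Lrp1 stood apart: its ratio was 1.10 (0.13 ± 0.30), higher in 5 of 6 libraries, and did not pass (exact permutation p = 0.3125). Over all members, 117 pairs of neighbouring classes were compared by the same exact test. In 24 of them the sign was the same in every library. None passed after adjustment over the 117 pairs (smallest adjusted p = 0.183, exact permutation test). This exact p cannot go below 0.031, so a pair could pass only if most of the 117 were at that limit. The adjusted test therefore cannot decide whether single neighbours differ, and steps between neighbours are described by their size, spread and sign per library.

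**Figure D1:**
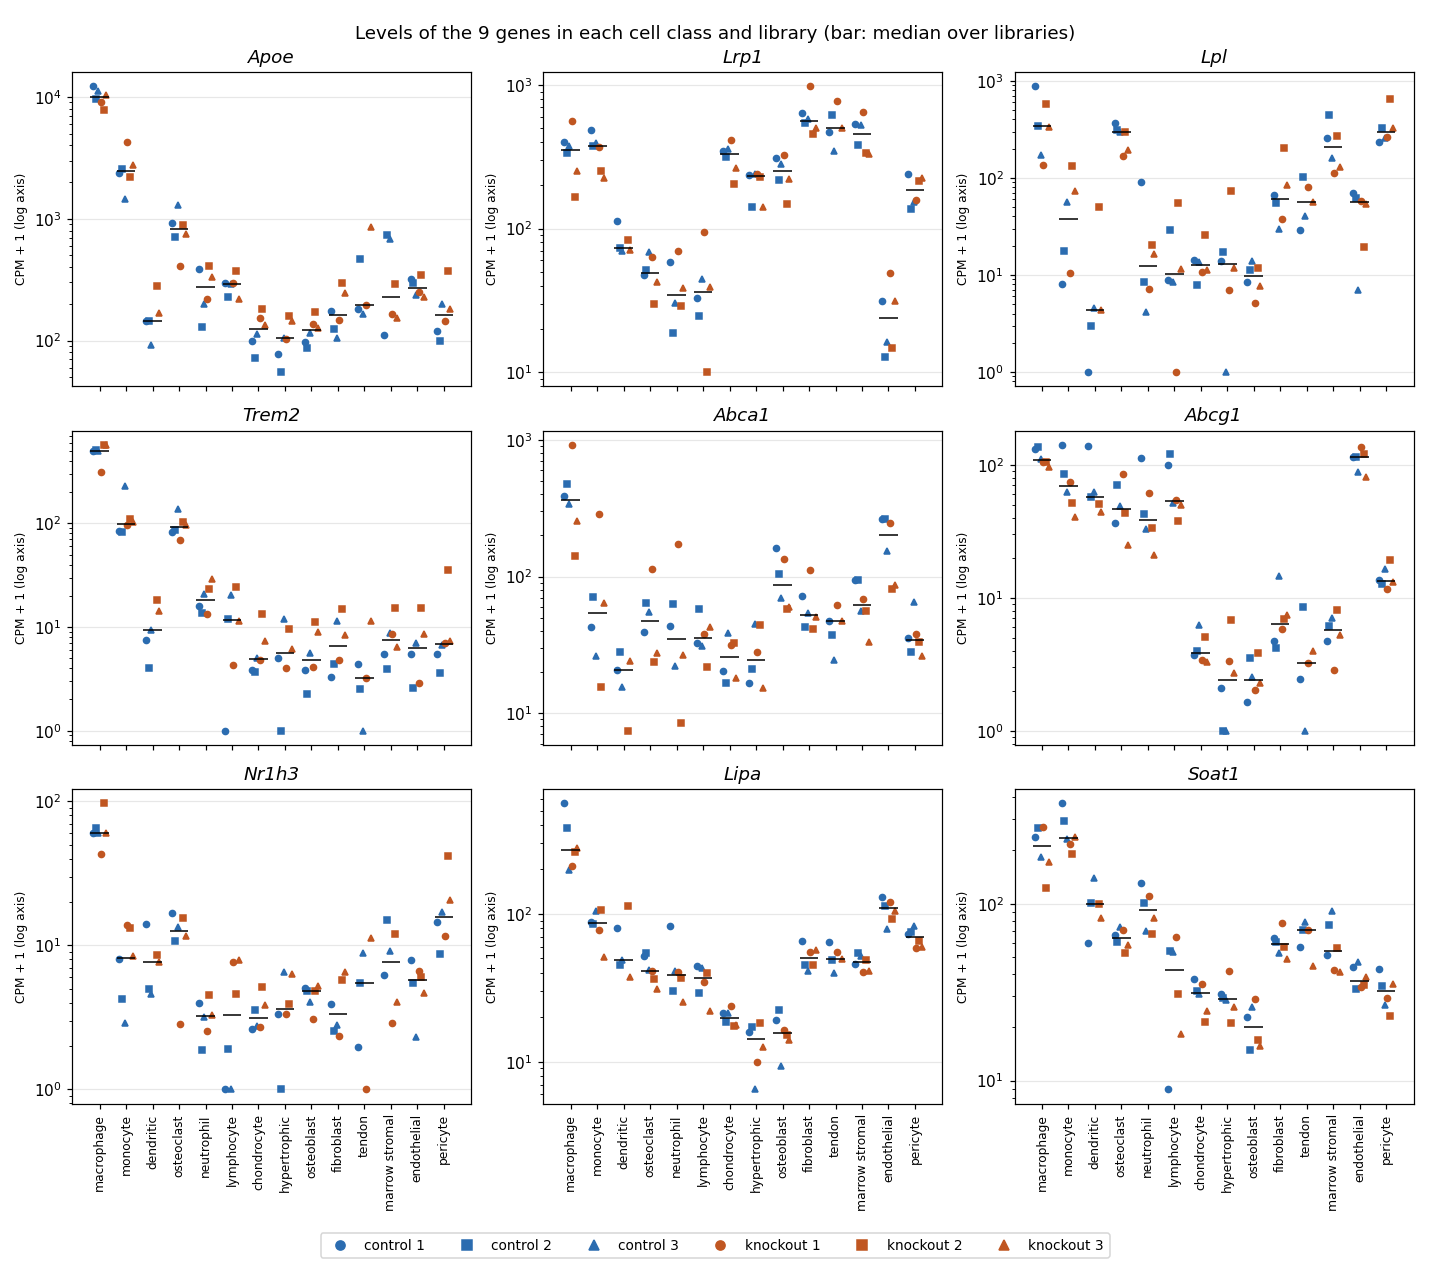
Levels of the 9 genes (y axis, CPM plus 1, log axis) in 14 cell classes (x axis), 1 point per library with at least 10 cells, blue for control and orange for knockout, and a bar at the median. Apoe and Trem2 peak in macrophage-like cells and fall off through monocyte-like and osteoclast-like cells, Abcg1 is as high in endothelial-like cells, and Lrp1 is highest in fibroblast-like cells.

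Trem2, whose product signals through the adaptor DAP12 (Tyrobp), was the sharpest myeloid gene beside Apoe. Its level in macrophage-like cells was 498, 508 and 498 CPM in the control libraries and 312, 572 and 569 in the knockout libraries. Osteoclast-like cells, in which TREM2 is known to help fusion, held 67.8 to 135, and monocyte-like cells 81.2 to 227. Every stromal and vascular class had a median under 7, and in lymphocyte-like cells, which should lack the receptor, the range was 0 to 23.4, where the count of 0 in control library 1 allows up to 11.9 (3 UMIs, for counting error only). Over 82 sums of a class in a library, Apoe and Trem2 had a Pearson r of 0.865 on the log2 scale, the highest of the 36 member pairs. These points share libraries and classes, so the value is a description. The genes most alike to Trem2 were Ms4a7, C3ar1 and Csf1r (r = 0.901, 0.886 and 0.884), and those most alike to Apoe were C3ar1, Trem2 and Cndp2 (0.868, 0.865 and 0.864). Of these, Ms4a7 and Csf1r were among the markers used to name the macrophage-like class.

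Lrp1, the large endocytic receptor for ApoE-bearing particles and many proteases, was high in stromal classes and, among myeloid classes, in macrophage-like and monocyte-like cells. Fibroblast-like cells held 634, 539 and 579 CPM in the control libraries and 980, 453 and 499 in the knockout libraries, above macrophage-like cells of the same library in 6 of 6. Cartilage-like cells were at 321, 305 and 351 against 383, 212 and 233, and macrophage-like cells at 164 to 560. Cartilage-like cells thus held this receptor's transcript in the range of macrophage-like cells. Endothelial-like cells were low in Lrp1, at 11.8 to 48.3, and osteoclast-like cells were at 28.9 to 67.6. Dendritic-like cells were at 68.6 to 112 and neutrophil-like cells at 17.8 to 68.4. Itgb5 and Dse had the patterns most alike (r = 0.881 and 0.876). On the opposite strand an uncharacterised gene, Gm16217, overlaps Lrp1 (chromosome 10, 127538161 to 127621148).

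Lpl, which hydrolyses the triglycerides of circulating particles after transfer to the vessel wall, had no single home. Macrophage-like cells held 878, 340 and 172 CPM in the control libraries and 134, 572 and 336 in the knockout libraries. Pericyte-like cells were as high, with 233, 325 and 254 against 261, 644 and 324, and osteoclast-like cells were at 169 to 362 and marrow stromal-like cells at 112 to 443. The ranges of these classes overlapped: macrophage-like cells were above pericyte-like cells in 3 of 6 libraries and above osteoclast-like cells in 4 of 6. Cartilage-like cells held 7.37 to 39.9 and osteoblast-like cells 4.11 to 13. Gpihbp1, which carries the lipase to the capillary lumen and was named after its values were seen, was by contrast an endothelial gene, at 262 to 970 in endothelial-like cells and a median of 8.99 in the next class.

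The 2 exporters divided the callus differently. Abca1, which loads lipid-poor apolipoproteins including ApoE, was measured in all classes: macrophage-like cells held 390, 475 and 340 CPM in the control libraries and 918, 141 and 254 in the knockout libraries. Endothelial-like cells were second (80.5 to 264) and osteoblast-like cells after them (57.2 to 162), and the order macrophage, endothelial, osteoblast held in 6 of 6 libraries. Abcg1, which exports to mature high-density particles, was shared by macrophage-like cells (131, 135 and 110 against 103, 104 and 95.5) and endothelial-like cells (113, 114 and 87.8 against 134, 119 and 80.2). Immune classes were between 19.8 and 140. Stromal classes were nearly without it: cartilage-like cells held 2.14 to 4.86, osteoblast-like cells 0.629 to 2.84 and fibroblast-like cells 3.20 to 13.6. Osteoblast-like cells thus had Abca1 with almost no Abcg1. Knockout library 1 had the most Abca1 in macrophage-, monocyte-, neutrophil-, osteoclast- and fibroblast-like cells, and knockout library 2 the least in each of these 5 classes.

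Nr1h3, the LXR alpha gene that stands above Apoe and both exporters, was low and macrophage-centred. Macrophage-like cells held 58.9, 64.2 and 58.9 CPM in the control libraries and 41.9, 95.8 and 59.8 in the knockout libraries. Pericyte-like cells followed with 7.70 to 40.5 and osteoclast-like cells with 1.83 to 15.9, and cartilage-like cells held 1.79 to 3.71. Endothelial-like cells, with as much Abcg1 as macrophages, held 1.33 to 6.93 of Nr1h3. Nr1h2, the gene of the ubiquitous LXR beta, which was named after its values were seen, had its highest median there, 56.0, and a median of 43.3 in macrophage-like cells.

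Lipa and Soat1, which act on opposite sides of the cholesterol ester, were both high in macrophage-like cells but differed in the order of the other classes. Lipa was at 558, 379 and 199 CPM in macrophage-like cells of the control libraries and at 210, 261 and 278 in those of the knockout libraries. Endothelial-like cells came second with 77.7 to 130, and cartilage-like cells held 15.4 to 20.4. Lipa in osteoclast-like (29.9 to 53.1) and neutrophil-like cells (24.4 to 81.2) overlapped with fibroblast-like cells (39.8 to 64.7). Soat1 had its highest median in monocyte-like cells (189 to 368), with macrophage-like cells at 237, 266 and 183 against 270, 121 and 171. The monocyte-like value was the higher one in 5 of 6 libraries (log2 ratio 0.32 ± 0.36), which is no more than the spread. Fibroblast-like cells held 47.8 to 76.8 and osteoblast-like cells 13.9 to 27.8 of Soat1.

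Other genes of the pathway were read from 7 lists. Each gene with a median of at least 10 CPM in some class was assigned the class in which its median was highest, as a description, and the genes named here were chosen after their values were seen. Of the 6 measured genes of lysosomal cholesterol and esters, 6 were highest in a myeloid class: Npc1, Nceh1 and Plin2 in macrophage-like cells (medians 137, 137 and 647) and Npc2, the lysosomal carrier, in osteoclast-like cells (1714). Of the 8 genes around TREM2 signalling and lipid-associated macrophages, 6 were highest in a myeloid class, among them Gpnmb, Ctsd and Fabp5 in macrophage-like cells, whereas Fabp4, the fatty acid carrier of capillaries, was highest in endothelial-like cells (4107). Lipoprotein receptors were scattered. Vldlr led in osteoblast-like cells (288), Scarb1 and Cd36 in endothelial-like cells (226 and 272), Msr1 in macrophage-like cells (217) and Sorl1 in neutrophil-like cells (372). Synthesis lay on the other side: of 16 genes of cholesterol synthesis and its control, 12 were highest in a stromal class, and in 11 of these it was the hypertrophic-like class, among them Hmgcs1 (162), Cyp51 (98.0) and Msmo1 (106). None of the 16 was highest in macrophage-like cells. The hypertrophic-like class held 22 to 469 cells per library, and the summed level of the 16 genes there ran from 436 to 2140 CPM. Their median log2 fold change between the genotype labels in this class was -0.75, beside 0.01 over all genes, and none of the 16 passed. In the cartilage-like class, which includes these cells, the median of the list was 0.04. In the other tested classes it ran from -0.22 (osteoclast-like) to 0.11 (osteoblast-like).

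**Figure D2:**
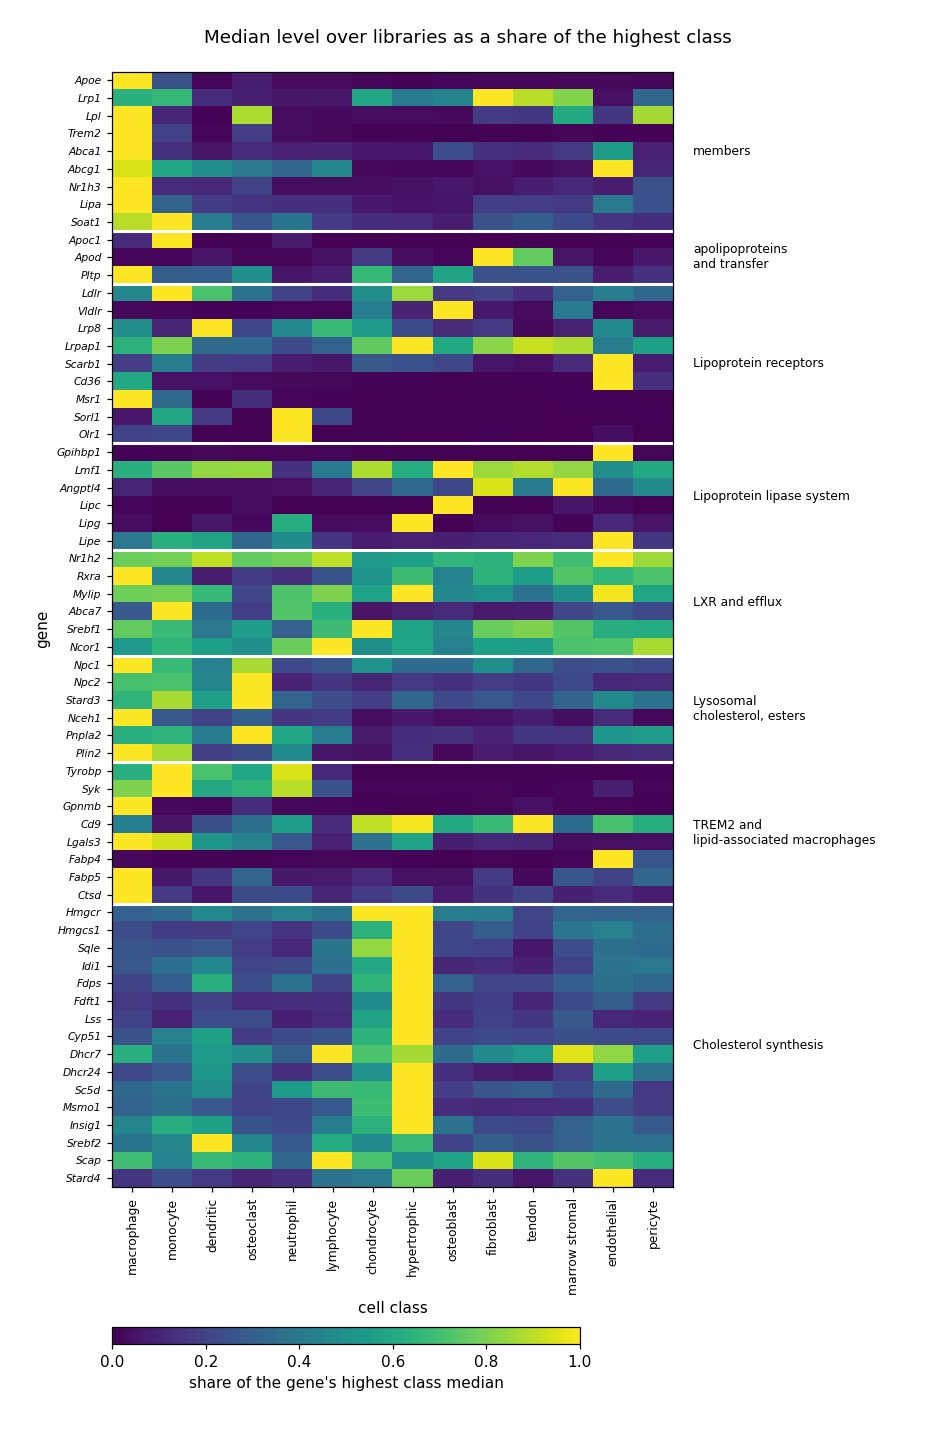
Median level over libraries in each class, as a share of the gene's highest class (colour, 0 to 1), for the 9 members and the list genes with a median of at least 10 CPM in some class (rows) in 14 classes (columns). The 6 lysosomal genes are brightest in myeloid columns, and 11 of the 16 cholesterol synthesis genes are brightest in the hypertrophic column.

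The study compared the genotype labels, and each gene was tested in 8 classes with edgeR's quasi-likelihood test on UMIs summed per library (3 against 3, Benjamini-Hochberg adjustment over all genes of the class). No gene passed in any class: 0 of 12686 genes in macrophage-like cells (0%), 0 of 14758 in cartilage-like cells (0%) and 0 of 9734 to 14443 in the other 6, so that no member was called either. At an unadjusted p under 0.05, edgeR listed 167 genes in macrophage-like cells, 302 in cartilage-like cells and 149 to 779 in the other 6. Without knockout library 1 these counts were 1779, 1972 and 419 to 2191, with 0 genes called in macrophage-like and cartilage-like cells. DESeq2 called 2 genes in macrophage-like, 2 in hypertrophic-like, 3 in osteoblast-like and 3 in endothelial-like cells, none of them a member, and 0 in the other 4. All 9 members were tested except Trem2, Abcg1 and Nr1h3 in hypertrophic-like cells and Abcg1 and Nr1h3 in osteoblast-like cells, which were too low. No gene of the 7 lists was called in any class.

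In macrophage-like cells 7 of the 9 members had a fold change below 0, none of which passed (median -0.25, beside 0.01 over all genes). The log2 fold change (knockout minus control) was -0.25 ± 0.30 (SE) for Apoe, -0.03 ± 0.33 for Trem2, -0.30 ± 0.65 for Lpl and 0.09 ± 0.60 for Abca1, with an adjusted p of 1.00 for each. For Nr1h3 it was 0.15 ± 0.33, for Lrp1 -0.20 ± 0.41, for Soat1 -0.29 ± 0.31 and for Lipa -0.54 ± 0.35. Abcg1, at -0.30 ± 0.20, was the only member whose groups did not overlap there, with the 3 knockout values (95.5 to 104) below the 3 control values (110 to 135). Of 11235 genes with a mean of at least 3 CPM, 2.23% had knockout values all below control values. In osteoclast-like cells Lpl (169 to 294 against 298 to 362) and Lipa (29.9 to 40.3 against 40.5 to 53.1) had lower knockout values without overlap, and this held for 5.22% of all genes. All 9 members had a fold change below 0 in osteoclast-like cells (median -0.23), and 8 of 9 above 0 in fibroblast-like cells (median 0.25). The median over all genes was -0.01 in both classes, and no member passed. These counts moved with the processing: without replicate 3 of both groups, 6 of 9 were below 0 in osteoclast-like cells (median -0.07). In fibroblast-like cells 5 of 9 were above 0 without integration, and also 5 of 9 without knockout library 1 (median 0.03).

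Cartilage-like cells are the class that the Col2a1 promoter is meant to target, and there the Apoe values of the groups were apart. Control libraries 1 to 3 held 93.6, 69.9 and 112 CPM and knockout libraries 1 to 3 held 143, 173 and 136. The sums behind these values came from 73 to 1892 cells per library. The knockout libraries were all above the control libraries, with means of 151 ± 19.2 and 91.6 ± 20.9 (SD, n = 3 each). This was the one member of 8 counted that did so, beside 1.91% of all genes. The log2 fold change was 0.75 ± 0.27 (SE), with an unadjusted p of 0.0226 and an adjusted p of 1.00 by edgeR. The difference did not pass over all genes. Leaving out 1 library at a time gave 0.59 to 0.90.

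The same direction was seen for the Apoe means in 10 of the 13 classes outside macrophages. These 13 include the chondrocyte-like and hypertrophic-like classes, which make up the cartilage-like class and are not further evidence beside it. The log2 fold change was 0.78 ± 0.32 in fibroblast-like, 0.77 ± 0.43 in pericyte-like, 0.73 ± 0.40 in hypertrophic-like and 0.61 ± 0.27 in osteoblast-like cells, against 0.00 ± 0.22 in endothelial-like and -0.41 ± 0.40 in osteoclast-like cells (edgeR, adjusted p from 0.861 to 1.00). In osteoblast-like cells the knockout values (126 to 172) lay above the control values (86.0 to 114), as did those of 4.58% of all genes there. Without knockout library 2 the value fell to 0.38 in osteoblast-like and to 0.27 in pericyte-like cells. Trem2 gave values of the same sign: 0.93 ± 0.46 in cartilage-like, 1.48 ± 0.55 in osteoblast-like and 1.66 ± 0.72 in pericyte-like cells. Trem2 was low in these classes, at 1.27 to 10.1 CPM in osteoblast-like and 2.66 to 12.3 in chondrocyte-like cells. In pericyte-like cells its levels were 4.54, 2.57 and 5.74 in the control libraries and 5.93, 34.4 and 6.28 in the knockout libraries, apart as in 4.31% of all genes, and without knockout library 2 the fold change was 0.57. Lipa lay lower in knockout pericyte-like cells (58.2 to 64.8 against 72.1 to 82.1), as did 5.05% of all genes.

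**Figure D3:**
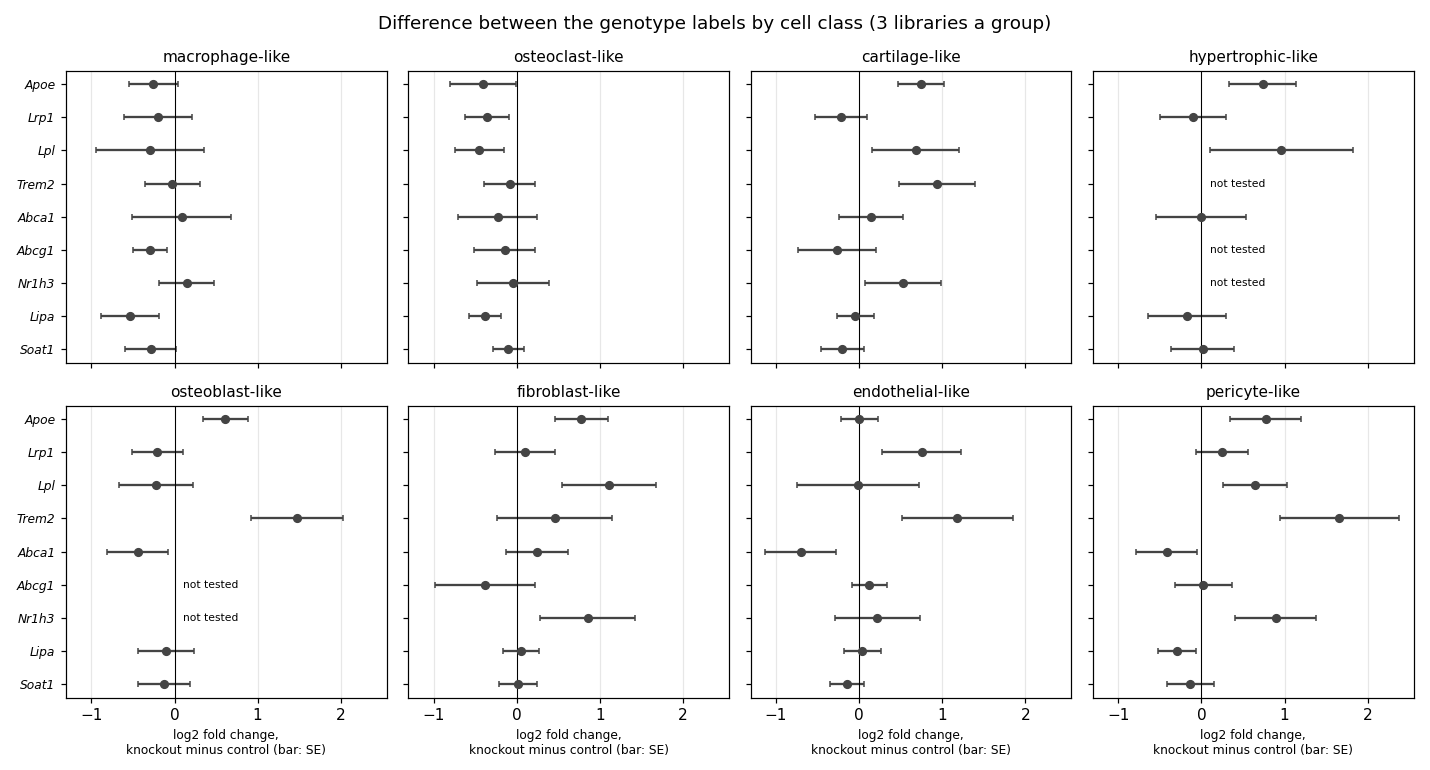
Log2 fold change between the genotype labels, knockout minus control (x axis), with its standard error (bars), for each member (y axis) in 8 classes, from 3 libraries a group. Apoe and Trem2 lie to the right of 0 in cartilage-, osteoblast-, fibroblast- and pericyte-like cells and at or left of 0 in macrophage- and osteoclast-like cells, and none passed the test.

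The genotype difference was also compared in cartilage-like and macrophage-like cells of the same libraries with an interaction term. Macrophage RNA in the cartilage-like sums enters this term too, so it does not separate such RNA from transcripts of the cartilage-like cells. The term was above 0 for all 9 members (median 0.46, beside 0.01 over all genes), but for 6 of 9 without knockout library 2, for 7 without control library 2, and for 8 without control library 1 or without the library block. It was 1.02 ± 0.36 for Apoe and 0.97 ± 0.30 for Trem2, with unadjusted p-values of 0.0186 and 0.00851 and an adjusted p of 1 (edgeR). Again 0 of 15069 genes passed (0%), with 626 at an unadjusted p under 0.05.

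Transcripts that are free in the suspension enter all droplets, so the level of Apoe outside macrophages was set beside that of C1qa, C1qb and C1qc, the complement subunits made by macrophages. C1q in cartilage-like cells was at 32.8, 18.4 and 24.1 CPM for the controls and at 47.4, 110 and 58.4 for the knockouts, the groups again apart. It was thus 0.360% to 0.509% of the macrophage level in the control libraries and 0.877% to 1.41% in the knockout libraries. The C1q mean was higher in the knockout libraries in 13 of 13 classes outside macrophages, and in 10 of them the groups did not overlap. With Pf4, Ms4a7, Adgre1 and Mrc1 the numbers were 12 and 7. In the 8 tested classes, knockout values all above control values were seen for 1.91% (cartilage-like) to 5.23% (endothelial-like) of all genes. The whole list of 10 macrophage markers was read in cartilage-like cells: none was at 0, all 10 had the higher mean in the knockout libraries, 8 of 10 did not overlap, and their sum was 42.3 to 65.0 CPM in the control and 104 to 193 in the knockout libraries. Macrophage markers were thus higher in the same libraries as Apoe.

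The level expected if all C1q of a class came with whole macrophage RNA was taken as the macrophage level of Apoe times the C1q ratio. In cartilage-like cells this gave 62.0, 34.4 and 56.6 CPM in the control libraries and 79.6, 111 and 90.9 in the knockout libraries. The expected values were thus apart between the labels as well, by 42.8 of the 59.2 CPM by which the observed means differed. What was observed above them was 31.6, 35.5 and 54.9 in the control libraries and 63.8, 61.7 and 45.6 in the knockout libraries. The groups overlapped, with means of 40.7 ± 12.5 and 57.0 ± 9.95 (SD, n = 3 each; two-sided exact permutation test, p = 0.2, where 3 against 3 cannot go below 0.1). With Pf4, Ms4a7, Adgre1 and Mrc1 in place of C1q the means were 41.2 and 53.1 (exact permutation p = 0.3).

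**Figure D4:**
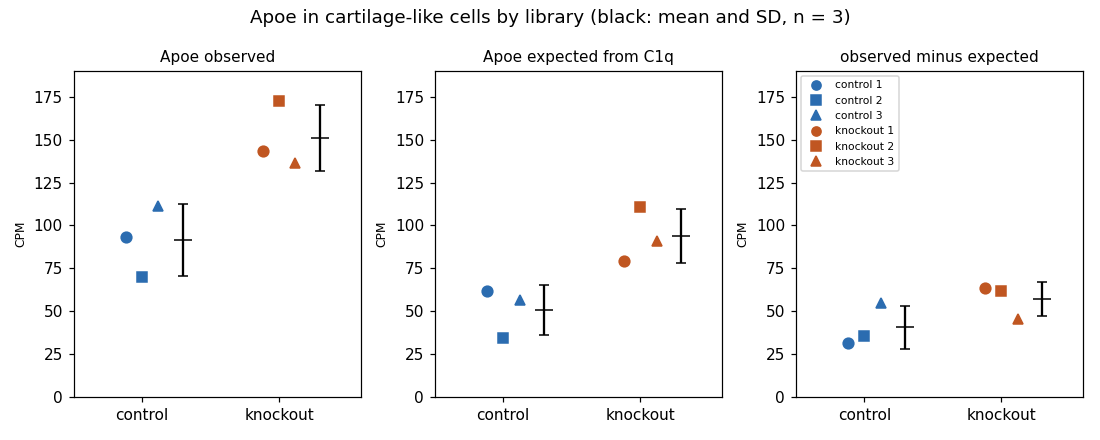
Apoe in cartilage-like cells (y axis, CPM) in 3 control and 3 knockout libraries: the observed level, the level computed from C1q, and the difference. Black marks give the mean and SD. The observed and the expected values are apart between the labels, and the differences overlap (31.6 to 54.9 against 45.6 to 63.8).

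The expected level counts macrophage RNA only, and monocyte-like and osteoclast-like cells also held Apoe (medians 2467 and 817 CPM). Free RNA of those classes was not tested. In every library, cartilage-like cells held more Apoe than C1q accounted for, by 1.5 to 2.03 times. This excess was not particular to cartilage: the ratio was 1.27 to 2.97 in neutrophil-like cells, 1.16 to 3.69 in lymphocyte-like cells, a class not known for either transcript, 1.30 to 2.80 in osteoblast-like, 1.79 to 4.16 in fibroblast-like, 1.55 to 3.38 in pericyte-like and 1.61 to 8.26 in endothelial-like cells. In 12 of the 13 classes outside macrophages the observed value exceeded the expected one in every library. Apoe in cartilage-like cells (69.9 to 173 CPM) lay below lymphocyte-like cells (219 to 371) in all libraries. When each cell was thinned to 500 UMIs, 3.87% to 16.7% of cartilage-like cells held an Apoe UMI, against 8.31% to 18.1% of neutrophil-like, 9.81% to 18.2% of lymphocyte-like and 72.3% to 79.9% of macrophage-like cells. Without thinning the shares were 54.4% to 90.4% in cartilage-like and 32.4% to 73.3% in lymphocyte-like cells, at median depths per library of 6735 to 35600 and 2231 to 7744 UMIs.

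**Figure D5:**
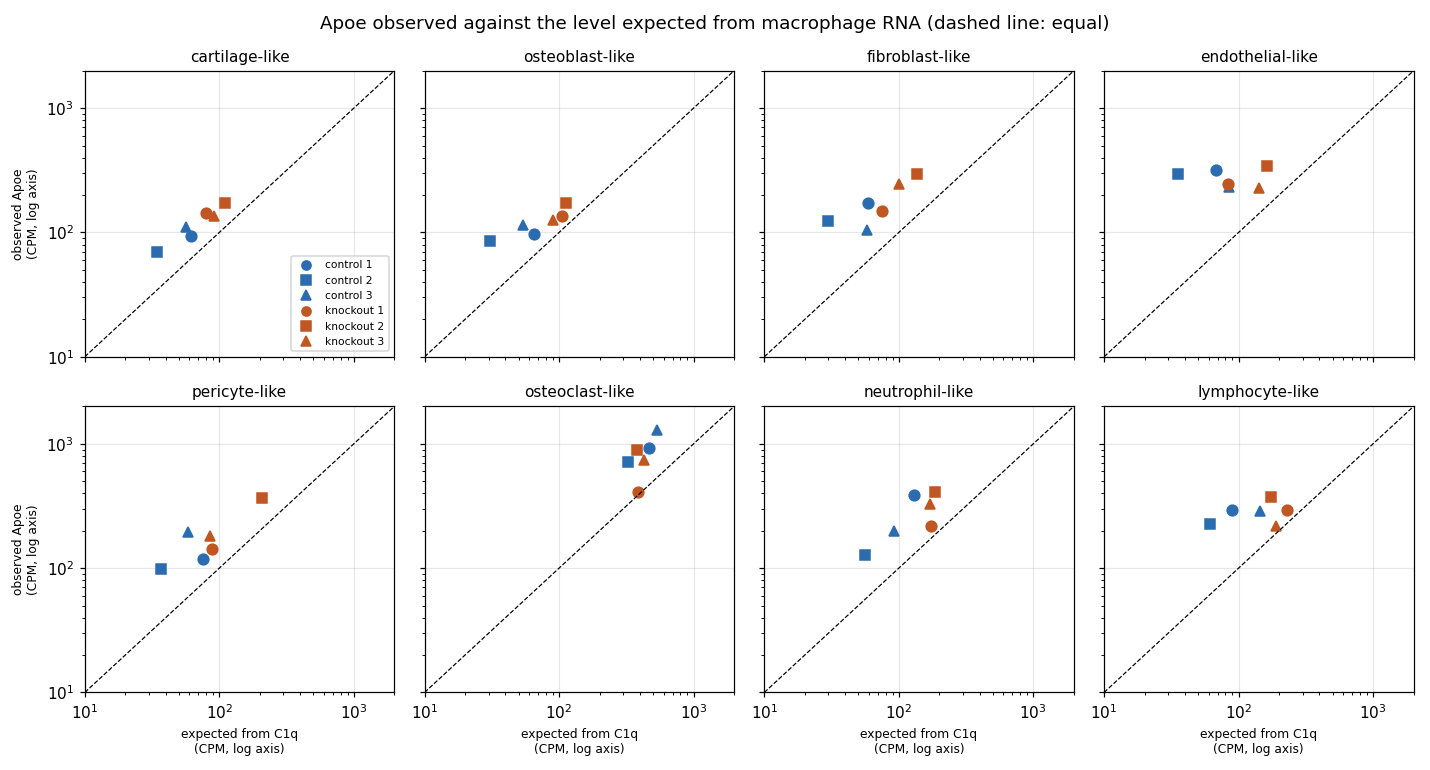
Apoe observed (y axis) against the level expected from C1q (x axis), both in CPM on log axes, in 8 classes, 1 point per library, blue for control and orange for knockout, with a dashed line where both are equal. All points lie above the line, and in the stromal classes the knockout points lie further to the right.

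The same reckoning gave unlike ratios for the members in cartilage-like cells. It counts macrophage RNA only. Lpl (pericyte-like median 293 CPM), Abca1 and Abcg1 (endothelial-like 199 and 113), Soat1 (monocyte-like 235) and Lrp1 (fibroblast-like 559) were also high in other classes. Free RNA of those classes was not tested. Abcg1 and Nr1h3 were low in cartilage (chondrocyte-like medians 2.84 and 2.14 CPM). Trem2, with a range that overlapped with that of Apoe, was at 1.2 to 1.78 times what C1q predicted. Abcg1 (2.55 to 8.72 times), Nr1h3 (2.75 to 10.5), Lpl (2.95 to 13.6), Abca1 (3.69 to 21.9) and Lipa (4.55 to 19.1) lay further above the predicted level. Soat1, at 11.9 to 32.4 times, and Lrp1, at 78.0 to 255 times, were far above in every library. In monocyte-like cells Apoe was at 3.05 to 18.7 times the expected value, and in osteoclast-like cells at 1.07 to 2.44 times, while Trem2 in osteoclast-like cells was at 3.65 to 5.69 times.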

How the data were processed

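Filtered cell matrices of 6 callus libraries were used. The authors aligned reads to GRCm38 and counted UMIs with Cell Ranger (6.1.1 for replicate 1 of both groups and 6.1.2 for replicates 2 and 3, per the file headers), and the deposited values are raw counts of UMIs. Replicate 3 of both groups lists other genes, so shared identifiers were used. Cells were kept with at least 500 UMIs, 200 genes and at most 20% mitochondrial UMIs, and the cells with the highest Scrublet scores were left out as doublets, 0.8% for every 1000 cells (scanpy 1.11.5). Variable genes (2000), without the members, the list genes and Piezo1, gave 30 principal components, which were integrated by RPCA in Seurat 5.3.0 and clustered with leidenalg 0.10.2 (20 neighbours, resolution 0.8). Clusters were named from marker lists. The thresholds that left mixed or few-UMI clusters unnamed were chosen with the data in view but did not use the genotype labels. Members and lists were chosen with earlier results of these data known.

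UMIs were summed per class and library with at least 10 cells. Groups come from the sample titles. Genotype was tested by the two-sided quasi-likelihood test of edgeR 4.0.16 after filterByExpr and TMM scaling, at an adjusted p of 0.05 (SE is the log2 fold change over the square root of F). The fit was also run on simulated data. Class levels, on log2(CPM + 1), were compared by exact sign-flip tests, and other values by exact permutation tests (scipy 1.17.1). Patterns were ranked by Pearson r over genes with a mean of at least 10 CPM, up to 3 named per member (1 of these results is not reported here). The genes named are the 9 members and list genes past the threshold, of which there were none, so list genes in the text were chosen after their values were seen. Counts of 0 allow up to 3 UMIs, for counting error only. Alternatives were no integration, a resolution of 1.2, a stricter filter on cells (1000 genes, 10% mitochondrial), a doublet rate of 1.6%, each library or replicate 3 left out, DESeq2 1.42.0, no filter on low counts, a replicate block, a pseudocount of 10, other macrophage genes and a total without mitochondrial and rRNA-overlapping genes. Counting the few-UMI cluster as chondrocyte-like was added after the data were seen. Gene positions were read from GENCODE M21 (GRCm38).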

Additional observations from a re-analysis of the deposited data

How the results depend on the processing

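The 8 members above cartilage-like cells stayed so in every alternative. With 5 libraries the exact test cannot go below 0.0625, so no member passed when 1 library was left out, and the mean log2 ratio then ran from 6.271 to 6.585 for Apoe, 6.279 to 6.602 for Trem2, 4.307 to 4.751 for Lpl, 3.623 to 4.21 for Abca1, 4.698 to 4.917 for Abcg1, 4.129 to 4.26 for Nr1h3, 3.789 to 4.088 for Lipa and 2.702 to 2.811 for Soat1. Without replicate 3 of both groups (4 libraries) the values were 6.39, 6.43, 4.72, 4.004, 4.91, 4.24, 4.09 and 2.80 in the same order. With the few-UMI cluster counted as chondrocyte-like, a choice made after seeing the data, Lrp1 came to 0.20 and passed. Apoe over expected (mean log2 ratio) moved with the second set of macrophage genes to 1.08 in hypertrophic-like and 0.49 in neutrophil-like cells. No member was called under any alternative. Without a filter on low counts 5 genes were called in macrophage-like, 62 in osteoclast-like, 84 in cartilage-like, 24 in hypertrophic-like, 55 in osteoblast-like, 29 in fibroblast-like, 81 in endothelial-like and 107 in pericyte-like cells and 134 for the interaction; DESeq2 called 2, 0, 0, 2, 3, 0, 3 and 0 in the 8 classes. With a doublet rate of 1.6% 13 of 12425 genes were called in hypertrophic-like cells, of which 4 libraries kept enough cells. Leaving out 1 library gave 0 to 1 there and 0 to 2 in pericyte-like cells (2 without knockout library 1). The cause was not tested.

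Small fold changes turned sign. Apoe in endothelial-like cells was at -0.0216 with a resolution of 1.2, -0.0303 without replicate 3 of both groups, -0.0204 without a filter and -0.1746 to 0.097 with 1 library left out. Trem2 in macrophage-like cells was at 0.0124 without a filter and -0.178 to 0.237 with 1 library left out. Lpl came to -0.20 in cartilage-like cells with a doublet rate of 1.6%, to -0.064 to 1.06 there and -0.876 to 0.415 in macrophage-like cells with 1 library left out. Lrp1 in fibroblast-like cells came to -0.0282 without integration and -0.303 to 0.297, Abca1 in macrophage-like cells to -0.0412 and -0.971 to 0.492, and Nr1h3 in macrophage-like cells to -0.253 to 0.407.

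A fit with the replicate number as a block called 0 genes in each of the 8 classes and changed no call; Apoe in cartilage-like cells was at 0.76. Under the block Apoe in endothelial-like cells was at -0.0042 and Abca1 in macrophage-like cells at -0.32. The labels do not say that a number pairs libraries, and the numbers were not taken as pairs. Deviations of same-numbered libraries from their group means did not all correlate above 0.1 in any class. Those of replicate 1 correlated at 0.07 to 0.44 in the 8 classes, so these values do not settle whether the numbers pair libraries.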
